A study of Mus musculus with 8 samples.

Results

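The P2X purinergic receptors are the ATP-gated cation channels of the mouse, and their genes were followed here in embryos with and without Prdm12. Members were chosen by gene symbol: the Ensembl identifiers of P2rx1 to P2rx7 were looked up in the count files, which gave 7 of 38355 counted genes. RNA sequencing was done on total RNA of mouse embryos at embryonic day E11.5, from thoracic dorsal root ganglia, where the cell bodies of sensory neurons lie, with the attached spinal cord. One group held 4 wild-type libraries (WT) and the other 4 libraries of Prdm12-/- embryos (KO), all of the C57Bl6 strain, and no treatment is named. The description of the series speaks of triplicates, while 4 libraries per genotype are listed, and all of them were used. Prdm12 encodes a zinc-finger regulator of transcription in developing pain-sensing neurons, and the question was which genes depend on it in somatosensory neurons. The labels do not give the deleted part of Prdm12, the sex of the embryos or whether a library came from 1 embryo or a pool, so p-values measure the spread between these libraries only.

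P2X receptors are trimers of subunits that each cross the membrane with a pair of helices around a large extracellular ATP-binding domain. Opening of the channel lets sodium and calcium into the cell. In sensory ganglia the best known member is the product of P2rx3, which marks many pain-sensing neurons and forms channels alone or together with the product of P2rx2. Other members are best known outside neurons, such as P2rx7 and P2rx4 in macrophages and microglia and P2rx1 in smooth muscle and platelets.

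The sequences below show how far the 7 genes can be told apart by reads. In a codon alignment of 1 principal coding sequence per gene (GENCODE M21), the 21 pairs of members were identical at 48.1% to 61.0% of aligned bases, and P2rx3 at 51.1% to 57.2% with each of the other 6. The longest stretch of identical bases shared by any pair was 26 bases, between P2rx3 and P2rx2.
Shared run of P2rx2 and P2rx3: GGCTACAACTTCAGGTTTGCCAAATA
The stretch of 60 coding bases most alike in all 7 genes lay across the junction of exons 9 and 10 in every one of them. It is printed 5′ to 3′ on the coding strand, with the 29 bases identical in all 7 in capitals.
P2rx1: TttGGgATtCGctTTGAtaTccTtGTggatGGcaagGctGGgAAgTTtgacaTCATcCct
P2rx2: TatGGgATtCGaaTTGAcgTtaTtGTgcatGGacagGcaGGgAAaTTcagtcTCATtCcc
P2rx3: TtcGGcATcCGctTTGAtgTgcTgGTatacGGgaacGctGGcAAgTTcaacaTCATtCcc
P2rx4: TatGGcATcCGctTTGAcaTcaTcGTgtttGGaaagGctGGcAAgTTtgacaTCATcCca
P2rx5: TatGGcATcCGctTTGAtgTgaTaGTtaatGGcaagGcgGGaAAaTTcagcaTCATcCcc
P2rx6: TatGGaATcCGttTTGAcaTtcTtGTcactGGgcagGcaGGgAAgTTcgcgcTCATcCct
P2rx7: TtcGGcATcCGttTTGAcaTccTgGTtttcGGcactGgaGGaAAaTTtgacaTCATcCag
In P2rx3 this stretch is coding bases 901 to 960 (mm10 chromosome 2, 85000366 to 85000692 with the intron, minus strand). Even in this most conserved window P2rx3 shared at most 46 of the 60 bases with another member, P2rx5.

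Library totals were 23088908 to 28500792 counts in 7 libraries and 67782435 in WT replicate 1. Prdm12 was at 22.2 to 39.6 CPM (read counts scaled to library size) in WT and 0.962 to 1.55 CPM in KO. Among the 4 WT libraries, WT replicate 1 was the lowest for 6 of the 7 P2X genes, for 8 of 11 genes of sensory neuron identity and for 7 of 7 tested genes of mechanoreceptors and proprioceptors. It was also the lowest for 6 of 7 crest and ganglion glia genes, 7 of 8 erythroid genes and 8 of 13 sclerotome and mesenchyme genes, and the highest for 5 of 6 neural tube progenitor genes. Its P2rx3 value was not an outlier of the WT group by Dixon's test (gap over range 0.638, critical value 0.829). With 4 values of 1 gene that test finds only extreme gaps and does not judge the library. Over many genes, chi-square per degree of freedom was 19.5 to 22.6 for WT pairs with replicate 1. It was 4.63 to 8.11 for the other WT pairs and 6.54 to 14.4 for KO pairs, a measure that grows with depth. P2rx3 and the sensory genes named beside it are given with and without this library. For P2rx3 and most of those genes it held the lowest WT value, so leaving it out raises their WT means. A call made without it is therefore not independent support for a difference. Values of single libraries are listed in the order of replicates 1 to 4. The libraries mix ganglion and cord, so fewer cells of a type and less RNA per cell cannot be told apart.

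P2rx3 was the most abundant P2X gene in this tissue. As CPM per kilobase of exon (RPKM) its level was 8.93 ± 2.23 in WT against 5.81 ± 0.892 in KO (SD, n = 4 per group). P2rx3 held 71.2% ± 3.77 of the summed RPKM of the 7 genes in WT and 62.0% ± 2.94 in KO (SD, n = 4 per group). Within libraries its level was on average 8.97 times that of whichever member came next in WT (9.74 times without replicate 1) and 5.62 times in KO. In WT it was followed by P2rx4 at 0.971 ± 0.0730 RPKM, P2rx7 at 0.910 ± 0.114 and P2rx1 at 0.787 ± 0.0838 (SD, n = 4 per group). The ranges of P2rx4 and P2rx7 overlapped, as did those of P2rx7 and P2rx1, so their order is not resolved. P2rx2, P2rx5 and P2rx6 formed a lower set at 0.324, 0.277 and 0.245 RPKM in WT, with overlapping ranges among themselves and none with P2rx1. In KO the order was the same apart from P2rx7 (1.03 ± 0.144 RPKM) above P2rx4 (0.963 ± 0.0783), whose ranges again overlapped. With the longest transcript in place of the exon union as gene length, P2rx4 was the second gene in both groups.

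**Figure D1:**
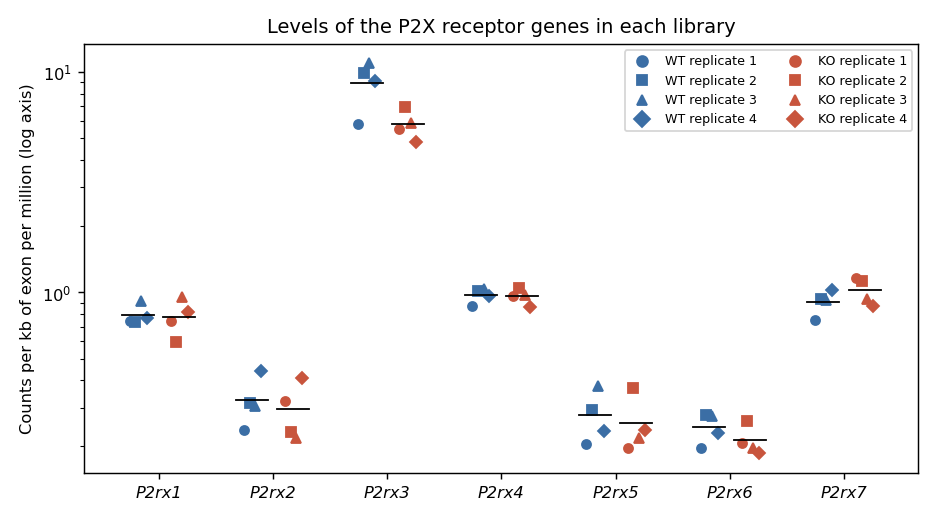
Level of each P2X gene in each library, as CPM per kilobase of exon on a log axis; blue points are WT and red points KO libraries, and black lines are group means. P2rx3 lies above every other member in all 8 libraries, and P2rx2, P2rx5 and P2rx6 lie lowest.

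None of the 7 P2X genes passed the test between KO and WT over all genes, and P2rx3 had the largest difference. edgeR's quasi-likelihood test with Benjamini-Hochberg adjustment called 0 of the 7 members, and all 7 had passed the filter on low counts. Of the 16068 tested genes 0.299% were called, 0.243% as lower and 0.056% as higher in KO. The WT and KO libraries did not overlap for 0 of 7 members, beside 4.14% of tested genes (2.45% lower and 1.69% higher in KO). At an unadjusted p under 0.05 it was 1 of 7, P2rx3, beside 6.35% of tested genes in either direction and 3.32% as lower. DESeq2 and limma-voom also called 0 of 7, with P2rx3 alone at an unadjusted p under 0.05. The median log2 fold change of the members was −0.07, beside −0.003 for all tested genes.

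P2rx3 (ENSMUSG00000027071, mm10 chromosome 2, 84998583 to 85037462, minus strand) lies on the same chromosome as Prdm12, 53.3 Mb away. It stood at 16.2, 27.6, 30.5 and 25.3 CPM in the 4 WT libraries, compared with 15.4, 19.5, 16.4 and 13.5 CPM in the 4 KO libraries. WT replicates 2 to 4 lay above every KO library, while WT replicate 1 lay inside the KO range. The means were 24.9 ± 6.22 CPM in WT against 16.2 ± 2.49 CPM in KO (SD, n = 4 per group). The log2 fold change was −0.61 (SE 0.19, 95% interval −1.05 to −0.18, edgeR unadjusted p = 0.0111, adjusted p = 0.578), and 0.678% of tested genes had a log2 fold change as low or lower.

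Without WT replicate 1 the remaining WT libraries averaged 27.8 ± 2.61 CPM (SD, n = 3) and the groups no longer overlapped, as was the case in this direction for 4.67% of tested genes. P2rx3 was then called lower, with a log2 fold change of −0.77 (SE 0.11, 95% interval −1.01 to −0.53, edgeR adjusted p = 0.00679), a level 0.586 times that of WT. In that fit 0.82% of 16229 tested genes were called, 0.69% as lower, and P2rx3 ranked 47th by p. P2rx3 was the one P2X gene called there. The library left out held the lowest WT value of P2rx3, so this call is not independent support for a difference. Leaving out any of the other 7 libraries gave log2 fold changes between −0.71 and −0.50, and P2rx3 passed in none of those fits. The plot of P2rx3 under each setting shows these values.

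**Figure D2:**
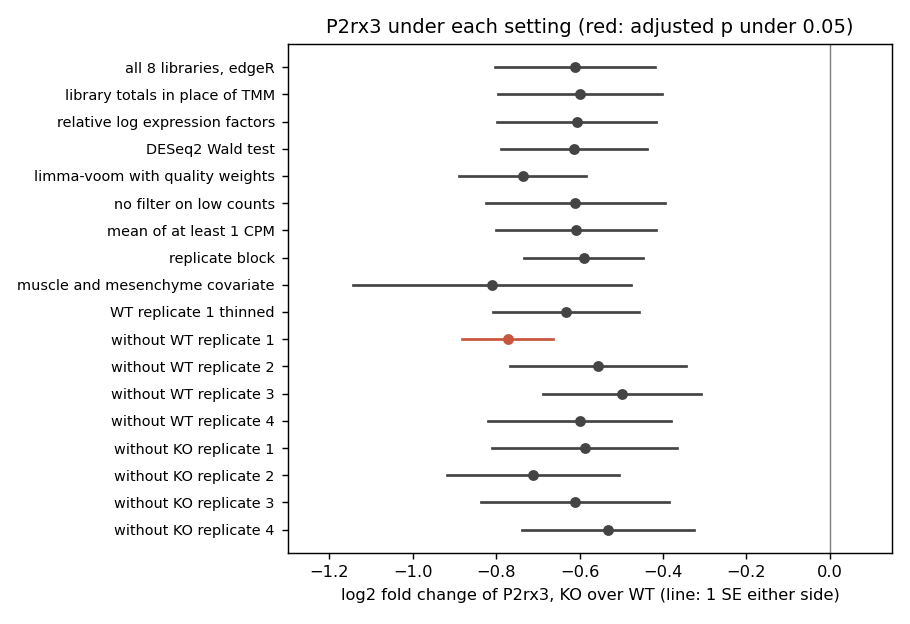
Log2 fold change of P2rx3 between KO and WT (x axis; point) with 1 SE to either side (line) for each test, scaling, filter, covariate and left-out library (y axis). All 18 values are below 0, and only the fit without WT replicate 1, drawn in red, has an adjusted p under 0.05.

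Several other genes of sensory neurons fell in KO. Of 11 genes of sensory neuron identity 3 were called lower, none higher and 8 did not pass, with a median log2 fold change of −0.34. Values below 0 were found for 9 of the 11, and the highest was 0.14 (Eya1). Tlx2, a homeobox factor of crest-derived neurons, averaged 15.5 ± 1.66 CPM in the WT libraries and fell to 9.22 ± 0.955 CPM in KO (SD, n = 4 per group; log2 fold change −0.74). Pou4f1, which encodes the sensory neuron factor Brn3a, fell by 0.52 and Eya2, a transcriptional co-activator, by 0.39 on the log2 scale. The summed level of the 11 genes was 399.9 to 523 CPM in WT and 366 to 404 CPM in KO, and none of them was at 0. The groups did not overlap for Tlx2, Pou4f1 and Eya2, WT replicate 1 included. Without that library 5 of the 11 sensory identity genes were called lower, these 3 with Tlx3 and Drgx. Eya1 lay above 0 in that fit, at 0.23 (edgeR unadjusted p = 0.00585, adjusted p = 0.283).

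P2rx3 was set against these genes library by library. The log2 CPM of P2rx3 minus the mean log2 CPM of the 11 sensory identity genes was −0.39, −0.06, 0.11 and −0.12 in the 4 WT libraries, compared with −0.57, −0.20, −0.30 and −0.56 in the 4 KO libraries. WT replicate 1 again lay inside the KO range. The difference between groups, KO minus WT, was −0.29 log2 units (two-sided exact permutation p = 0.0857 over 70 assignments, with a smallest possible p of 0.029). Without WT replicate 1 it was −0.39 (exact permutation p = 0.0571, the smallest that 7 libraries allow). With all 8 libraries a difference of P2rx3 beyond that of the other sensory genes did not pass the threshold of 0.05. With the median of the 11 genes in place of their mean it was −0.48 (exact permutation p = 0.0857), and with the nociceptor lineage genes as reference the sign turned, to 0.089 (exact permutation p = 0.229).

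The genes whose log2 CPM followed P2rx3 most closely over the 8 libraries were Scn10a, Lrp11, Nrp1, Fgf13, Fgd3 and Trhde, with Pearson r between 0.976 and 0.985. Of 16067 genes compared, 139 had an r of at least 0.9. These values describe libraries that share group, dissection and depth. After removal of the group means r was 0.954 to 0.979 for these 6, which were picked by their r in the same libraries. Among the other P2X genes that r with P2rx3 was 0.93 for P2rx4, 0.899 for P2rx6, 0.773 for P2rx5 and 0.699 for P2rx7. It was 0.03 for P2rx2 and −0.03 for P2rx1. Before removal of the group means r was 0.684 for P2rx4, 0.881 for P2rx6, 0.655 for P2rx5 and 0.104 for P2rx7. The count of genes with r of at least 0.9 belongs to r before that removal, and no P2X gene reached 0.9 there. WT replicate 1 held the lowest WT value of P2rx3 and of these 4 genes. Scn10a, which encodes the sodium channel Nav1.8 of nociceptors, stood at 0.966, 3.50, 3.65 and 2.68 CPM in the 4 WT libraries, compared with 0.759, 1.16, 0.712 and 0.394 CPM in the 4 KO libraries. As with P2rx3, WT replicate 1 lay inside the KO range. The log2 fold change of Scn10a was −1.77 (SE 0.46, edgeR adjusted p = 0.353). It was called lower by DESeq2, and by edgeR without WT replicate 1 (log2 fold change −2.09, adjusted p = 0.00194). Scn9a, which encodes the sodium channel Nav1.7, had a log2 fold change of −0.47 (edgeR adjusted p = 0.884), and −0.66 without WT replicate 1 (edgeR adjusted p = 0.554). Of the 11 listed nociceptor lineage genes 7 were tested. Their median log2 fold change was −0.19, with 85.7% of values below 0 and the highest at 0.23. The median was −0.42 without WT replicate 1. Nrp1, a receptor for semaphorins on growing axons, was at 153.5 ± 21.3 CPM in WT against 129 ± 9.02 CPM in KO (SD, n = 4 per group), and none of the 6 genes passed the edgeR test with all 8 libraries.

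Pirt, which encodes a membrane protein of sensory neurons that binds TRPV1 and P2X3 channels, showed the same arrangement. It stood at 4.32, 19.4, 19.8 and 15.2 CPM in the 4 WT libraries, compared with 8.45, 12.2, 7.27 and 4.20 CPM in the 4 KO libraries. WT replicates 2 to 4 were above all KO libraries and WT replicate 1 was near the lowest KO library (log2 fold change −0.85, SE 0.53, edgeR adjusted p = 0.897). Without WT replicate 1 the log2 fold change of Pirt was −1.17 (SE 0.31, edgeR adjusted p = 0.367). Among mechanoreceptor and proprioceptor genes the smallest p belonged to Runx3, Mafa and Ntrk3. Runx3, a transcription factor of proprioceptors, was at 8.17 CPM in WT replicate 1, at 16.1 to 19.2 CPM in WT replicates 2 to 4 and at 4.94 to 9.81 CPM in KO (log2 fold change −1.13, edgeR adjusted p = 0.501). Without WT replicate 1 it had −1.34 (SE 0.23, edgeR adjusted p = 0.0508). Mafa and Ntrk3, which encodes the neurotrophin receptor TrkC, had log2 fold changes of −0.49 and −0.22, and −0.63 and −0.28 without WT replicate 1. The other tested genes showed smaller changes, with Ntrk2 at −0.04, Shox2 at −0.01, Etv1 at −0.005 and Maf at 0.11 on the log2 scale. Without WT replicate 1 these were −0.10, −0.05, −0.08 and −0.04. Taking all 7 tested mechanoreceptor and proprioceptor genes, the median on this scale was −0.04, and −0.10 without WT replicate 1. edgeR, DESeq2 and limma-voom called 0 of the 7 tested genes of that list, with 1 lower at an unadjusted p under 0.05 in edgeR and 3 without WT replicate 1. Of the 5 genes of P2X3-associated proteins, Pirt among them, 0 were called and 0 were lower at an unadjusted p under 0.05 in edgeR, and 0 and 2 without WT replicate 1.

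**Figure D3:**
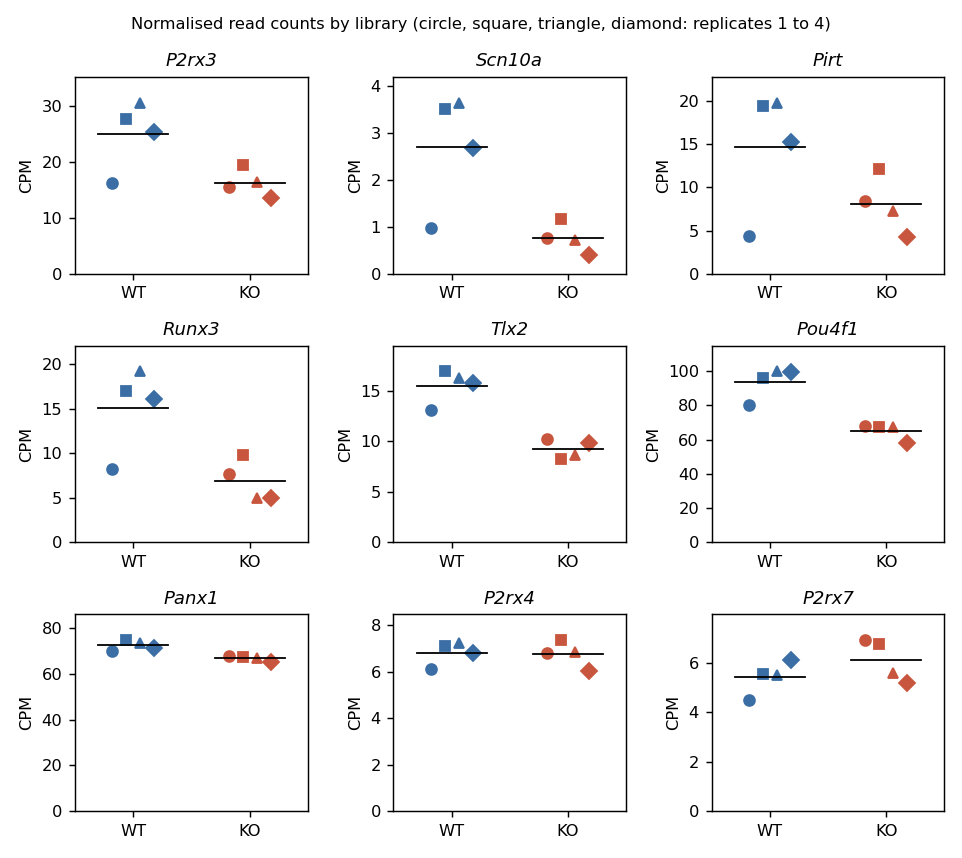
Normalised read counts (CPM, linear axes from 0) of P2rx3, 5 sensory neuron genes, Panx1, P2rx4 and P2rx7 in the WT (blue) and KO (red) libraries, with replicates 1 to 4 drawn as circle, square, triangle and diamond and group means as lines. WT replicate 1 lies inside the KO range for P2rx3, Pirt, Scn10a and Runx3, but above it for Tlx2 and Pou4f1.

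P2rx2, the partner of P2rx3 in sensory neurons (ENSMUSG00000029503, chromosome 5, 110339812 to 110343212, minus strand), was detected at only 15 to 41 reads per library. It stood at 0.609, 0.812, 0.784 and 1.13 CPM in the 4 WT libraries, compared with 0.831, 0.600, 0.562 and 1.05 CPM in the 4 KO libraries. The groups overlapped throughout. The log2 fold change was −0.10 with a 95% interval of −0.68 to 0.49 (edgeR adjusted p = 0.979), so a difference inside this interval could not be told from none. Per kilobase, P2rx2 held 2.63% ± 0.595 of the P2X total in WT and 3.26% ± 1.29 in KO (SD, n = 4 per group).

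P2rx4 (ENSMUSG00000029470, chromosome 5, 122707544 to 122729738, plus strand) gave the narrowest interval of the family. It encodes a widely expressed channel of neurons, epithelia and microglia. It stood at 6.11, 7.12, 7.25 and 6.80 CPM in the 4 WT libraries, compared with 6.79, 7.37, 6.86 and 6.03 CPM in the 4 KO libraries. The log2 fold change was −0.01 with a 95% interval of −0.22 to 0.21 (edgeR adjusted p = 0.999), or 0.859-fold to 1.16-fold. P2rx7 (ENSMUSG00000029468, chromosome 5, 122643911 to 122691432, plus strand), the channel of macrophages that triggers inflammasome activation, lies 16.1 kb from P2rx4 in the same orientation. P2rx7 was the only member with a positive log2 fold change here, although P2rx1 and P2rx4 also came out just above 0 with library totals as the scaling. It stood at 4.50, 5.57, 5.53 and 6.13 CPM in the 4 WT libraries, compared with 6.94, 6.77, 5.59 and 5.20 CPM in the 4 KO libraries. The groups overlapped, and the log2 fold change of 0.18 (SE 0.13, 95% interval −0.10 to 0.47) did not pass (edgeR adjusted p = 0.910). All 10 macrophage marker genes were present, summing to 67.2 to 82.8 CPM in WT and 75.0 to 82.0 CPM in KO. None of them was called by edgeR, DESeq2 or limma-voom, 1 was higher at an unadjusted p under 0.05 in edgeR (C1qc), and the part of macrophages in the levels of P2rx4 and P2rx7 was not tested.

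P2rx1 (ENSMUSG00000020787, chromosome 11, 72999103 to 73015200, plus strand) stood at 1.95, 1.92, 2.39 and 2.01 CPM in the 4 WT libraries, compared with 1.95, 1.56, 2.51 and 2.14 CPM in the 4 KO libraries. Its log2 fold change was −0.01 with a 95% interval of −0.37 to 0.35 (edgeR adjusted p = 0.999). Markers of the cells it is best known from were present in both groups. The 4 smooth muscle genes summed to 144 to 194 CPM in WT and 166 to 252 CPM in KO, with 3 of 4 log2 fold changes below 0. Most of this sum was Acta2, at means of 143 CPM in WT and 179 CPM in KO. Tagln averaged 25.0 CPM in WT and 24.6 CPM in KO. Myh11 was low, at 1.36 and 1.03 CPM, as was Cnn1, at 1.02 and 0.595 CPM. The 6 megakaryocyte and platelet genes summed to 41.1 to 50.4 CPM in WT and 40.2 to 45.8 CPM in KO, with 5 of 6 below 0, and the part of either cell type in the level of P2rx1 was not tested. P2rx5 (ENSMUSG00000005950, chromosome 11, 73160421 to 73172685, plus strand), 145.2 kb further along, encodes a subunit found in developing skeletal muscle. It rested on 13 to 33 reads per library, with 0.490 to 0.901 CPM in WT and 0.470 to 0.881 CPM in KO (log2 fold change −0.07, 95% interval −0.68 to 0.54, edgeR adjusted p = 0.987). P2rx6 (ENSMUSG00000022758, chromosome 16, 17561885 to 17577800, plus strand), whose product forms few channels on its own, had 17 to 53 reads per library. It ranged from 0.787 to 1.11 CPM in WT and from 0.743 to 1.04 CPM in KO (log2 fold change −0.17, 95% interval −0.60 to 0.27, edgeR adjusted p = 0.962). Its edgeR unadjusted p of 0.55 is larger than this interval implies, so the interval may be too narrow.

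Skeletal muscle and mesenchyme markers had mostly positive log2 fold changes in KO. Those of 3 of 4 smooth muscle genes, 6 of 8 erythroid genes and 6 of 6 neural tube progenitor genes were below 0. Over all tested genes 51.6% were below 0. WT replicate 1 was the highest WT library for 5 of the 6 progenitor genes. Without it their log2 fold changes lay between −0.17 and −0.01, with 0 at an unadjusted p under 0.05 in edgeR. The 12 skeletal muscle genes had a median log2 fold change of 0.30 and summed to 902 to 1059 CPM in WT and 999.9 to 1436 CPM in KO. The 25 muscle and mesenchyme genes together had 24 values above 0, of which edgeR and limma-voom called 0 and DESeq2 1 (Acta1, higher), with 9 higher at an unadjusted p under 0.05 in edgeR. With their mean log2 CPM as a covariate the log2 fold change of P2rx3 was −0.81 (SE 0.33, edgeR adjusted p = 1). P2rx3 was thus called neither with nor without it. This mean was 5.88 to 6.02 in the WT libraries and 6.04 to 6.29 in the KO libraries. The ranges did not overlap, so this fit cannot separate the covariate from genotype, and 1 of 16068 tested genes was called in it.

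Between the group means, the difference in the summed level of the family lay in P2rx3. The ranges of the sum overlapped, at 8.79 to 14.8 RPKM in WT and 8.22 to 10.6 RPKM in KO. The 7 genes summed to 12.4 ± 2.58 RPKM in WT against 9.34 ± 0.988 RPKM in KO (SD, n = 4 per group). The 6 genes other than P2rx3 summed to 3.51 ± 0.357 RPKM in WT against 3.53 ± 0.116 RPKM in KO (SD, n = 4 per group). These sums are given as a description, with no test, and include WT replicate 1. Without that library the log2 fold changes were −0.03 for P2rx1, −0.26 for P2rx2 and −0.05 for P2rx4. They were −0.23 for P2rx5, −0.28 for P2rx6 and 0.10 for P2rx7, and none of these genes was called.

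The rest of the purinergic pathway showed no called gene. Of 38 listed genes 29 passed the filter on low counts, and edgeR, DESeq2 and limma-voom each called 0, with 1 gene lower and none higher at an unadjusted p under 0.05 in edgeR. The median log2 fold change was −0.03, and 15 of the 29 values were below 0. The 5 genes P2ry4, Panx3, Entpd2, Entpd8 and Slc28a3 were under 0.1 CPM on average, among them a receptor for uridine nucleotides, P2ry4.

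Panx1, which encodes a channel that releases ATP from cells, was the gene with the smallest p. It stood at 70.3, 74.9, 73.7 and 71.4 CPM in the 4 WT libraries, compared with 67.8, 67.7, 67.0 and 65.2 CPM in the 4 KO libraries. Every KO library was below every WT library, as was the case for 2.45% of tested genes, but the difference was small (log2 fold change −0.12, SE 0.04) and did not pass (edgeR adjusted p = 0.60). Slc17a9, the vesicular nucleotide transporter that loads ATP into vesicles, was low, at 0.412 ± 0.143 CPM in WT against 0.276 ± 0.143 CPM in KO (SD, n = 4 per group; log2 fold change −0.63, 95% interval −1.48 to 0.22).

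Among G-protein-coupled receptors for nucleotides the smallest p belonged to P2ry13 and P2ry14, at log2 fold changes of 0.32 and −0.38. Among adenosine receptors Adora2b and Adora1 had −0.13 and 0.16. Of 8 tested ectonucleotidases, which break down extracellular nucleotides, 6 had values above 0. Alpl, which encodes tissue-nonspecific alkaline phosphatase, was at 9.33 ± 2.82 CPM in WT against 12.8 ± 1.70 CPM in KO (SD, n = 4 per group; log2 fold change 0.44, edgeR adjusted p = 0.806). Enpp2, which encodes autotaxin, had 0.12 on the same scale. Among genes of adenosine uptake and metabolism Slc29a2 and Ada had 0.11 and −0.12, and Cask, a scaffold protein reported to bind P2X3, had −0.05. The plot of the purinergic changes shows these intervals, which are not adjusted for the number of genes.

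**Figure D4:**
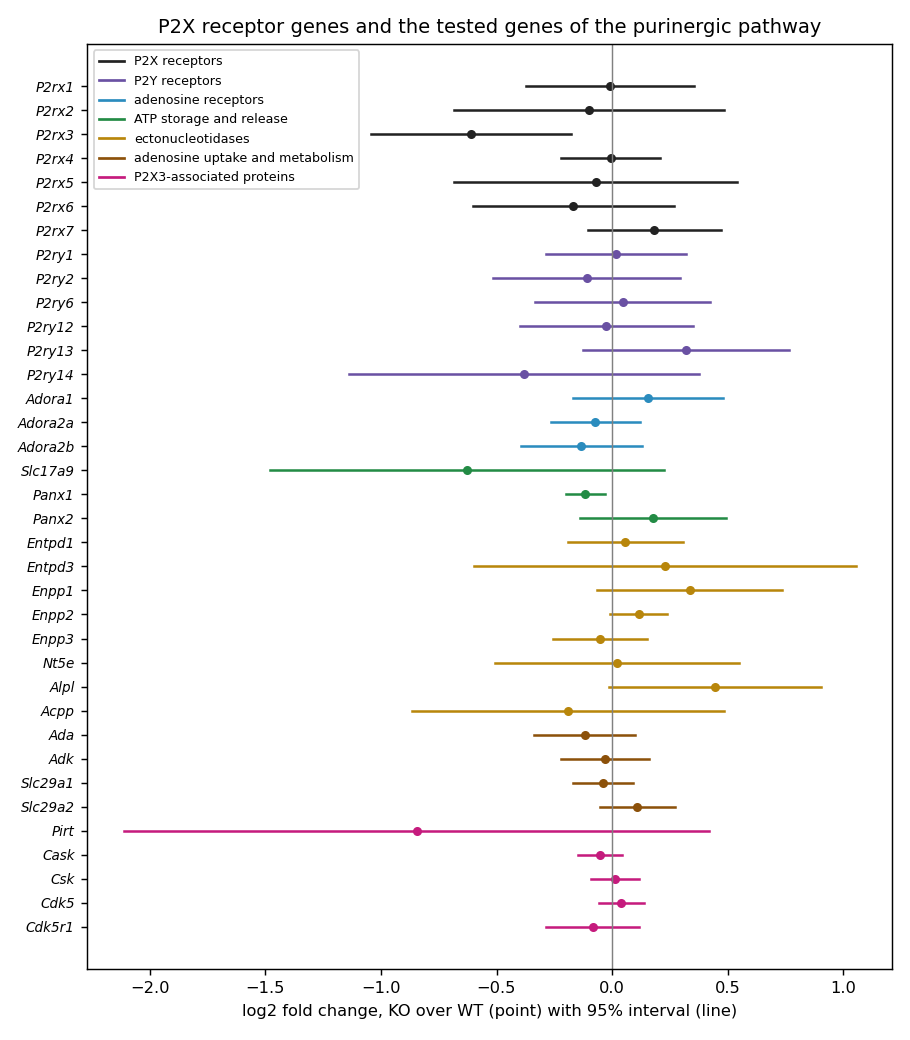
Log2 fold change between KO and WT (x axis; points) with 95% intervals (lines) for the 7 P2X genes and the 29 tested genes of the purinergic pathway, coloured by group. The intervals of P2rx3 and Panx1 exclude 0 before adjustment, and that of Pirt is the widest.

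Neighbouring genes were checked because counting may not have used strand. Ssrp1, a histone chaperone subunit gene on the other strand, starts inside the annotated span of P2rx3 and shares 51 exon bases with it, 1.83% of the P2rx3 exons, in 1 of its 5 transcripts and not in the principal one. Ssrp1 was at 521 ± 26.5 CPM in WT against 512 ± 31.8 CPM in KO (SD, n = 4 per group; log2 fold change −0.03), well above P2rx3 in count. Slc7a4, on the strand opposite to P2rx6, shares 554 exon bases with it, 13.9% of the P2rx6 exons, and had a log2 fold change of −0.39 (SE 0.25, edgeR adjusted p = 0.890), so the counts of P2rx6 are less certain. No other member shared exon bases with a gene present in the count files. The nearest tested genes that do not overlap a member had log2 fold changes between −0.09 (Emc6, beside P2rx5) and 0.35 (Itgae, beside P2rx5), with Pole, beside P2rx2, at −0.03 and Camkk2, beside P2rx4, at −0.03, and none of them passed.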

How the data were processed

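The deposited values are raw read counts per Ensembl gene, in a separate file for each of the 8 libraries. The submitters' processing notes name DESeq2 1.8.2, featureCounts 1.4.6-p1, SAMtools 0.1.18, STAR 2.3.0e and FastQC 0.10.1 and the build mm10, with settings, strand use and annotation release not given in the sources used here. The 5 summary rows held 0 counts and were left out. Symbols and exon lengths came from GENCODE M21 (36602 of 38355 identifiers matched).

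All genes were fitted with edgeR 4.0.16 (R 4.3.3): filterByExpr, TMM, robust quasi-likelihood F test on group, Benjamini-Hochberg adjustment over 16068 genes, threshold 0.05. Standard errors are the absolute log2 fold change over the root of the F statistic. For some genes with few reads, such as P2rx6, the p that edgeR gave is larger than these errors imply. CPM and RPKM use TMM-scaled library sizes; log2 CPM has a prior count of 2. DESeq2 1.42.0, limma-voom (limma 3.58.1), other scalings, filters, a replicate block, a covariate, thinning and left-out libraries were alternatives. Coding sequences were aligned with MAFFT 7.526. The code was tested on simulated data. Members, lists and tests were chosen with earlier results of these data known. Named genes were the members, Prdm12, and the called genes and the smallest p of each pathway and sensory list. Genomic neighbours and the genes most like P2rx3 were also named. Others (Acta1, C1qc, Tlx3, Drgx, Eya1, the smooth muscle genes and genes under 0.1 CPM) were named after their values were seen. The genes most like P2rx4 (Klhdc1, Plcb4 and Syt16) and P2rx5 (Adcy9, AA387200 and Trf) were also found; r was 0.978 to 0.986 and 0.951 to 0.954 over 8 libraries, with no p. Slc18a3 was not analysed here, and 1 gene that the rule named is not reported here.

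Calls in the remaining marker lists were: autonomic and visceral neurons (0 of 6 called; edgeR unadjusted 1 higher), crest and ganglion glia (Egr2 higher, Foxd3 lower, of 7), motor neurons (Lhx3 higher, of 4), neural tube progenitors (0 of 6; unadjusted 2 lower), smooth muscle (0 of 4; unadjusted 1 higher), endothelium and erythroid cells (0 of 8 each; unadjusted 0).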

Additional observations from a re-analysis of the deposited data

How the results depend on the processing

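No P2X gene was called with library totals, relative log expression factors, DESeq2, limma-voom, no filter, a filter at 1 CPM, a replicate block, the muscle and mesenchyme covariate or WT replicate 1 thinned to the depth of the others. P2rx3 was below 0 in all 17 alternatives, from −0.81 to −0.59 in those 9 (DESeq2 adjusted p = 0.0592, limma-voom 0.0805) and from −0.77 to −0.50 when 1 library was left out, with the number of members called between 0 and 1. The call appeared only without WT replicate 1. The cause was not tested.

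The number of genes called, 48, was 103 with DESeq2, 125 with limma-voom, 16 with a replicate block, 1 with the muscle and mesenchyme covariate and 15 to 133 with 1 library left out. It was 133 without WT replicate 1, 30 without WT replicate 2, 23 without WT replicate 3, 17 without WT replicate 4, and 30, 20, 15 and 17 without KO replicates 1 to 4. The cause was not tested. Samples of the same number share only a number: their deviations correlated at −0.108, 0.282, −0.187 and −0.00668 over tested genes, and with the block P2rx3 had −0.59 (adjusted p = 0.392), with 0 members called.

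P2rx1 was at 0.000707 with library totals and 0.034 with WT replicate 1 thinned, and −0.12 to 0.10 with 1 library left out. P2rx4 was at 0.00577 with library totals and 0.00361 with DESeq2, and −0.053 to 0.046 with 1 library left out. P2rx2 lay between −0.28 and 0.078 and P2rx5 between −0.30 and 0.10 with 1 library left out; they were at −0.44 and −0.55 with the muscle and mesenchyme covariate and at −0.23 and −0.34 with limma-voom. The values whose sign changed all lay within 1 SE of 0. P2rx6 stayed below and P2rx7 above 0 in every alternative that tested them; the filter at 1 CPM removed P2rx2, P2rx5 and P2rx6.

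P2rx3 relative to the sensory identity genes lay between −0.39 and −0.22 with 1 library left out (two-sided exact permutation p = 0.0571 to 0.171; 0.0571 is the smallest that 7 libraries allow). It was 0.089 with the nociceptor lineage genes as reference (exact permutation p = 0.229). P2rx3 over the next highest member lay between 8.43 and 9.74 in WT and between 5.45 and 5.91 in KO with 1 library left out, and was 7.77 and 5.13 with the longest transcript as length. P2rx2, P2rx5 and P2rx6 rest on 13 to 53 reads per library, so counting error is largest for them.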
